A study of Mus musculus with 18 samples.

Results

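The 10 genes described here encode the cyclins and cyclin-dependent kinases that carry a cell through its division cycle: Ccnd2, Ccnd3, Ccne1, Ccne2, Ccna2, Ccnb1, Ccnb2, Cdk1, Cdk2 and Cdk4. They were taken by gene symbol from strain-specific read counts of mouse B cells, 1 table for reads assigned to the 129S1 genome and 1 for reads assigned to the Cast genome in each sample. There were 40327 genes on the 129S1 side and 39147 on the Cast side, of which 28374 could be matched by symbol. All 10 genes were named in the Cast tables and 9 in the 129S1 tables, where no gene was named Ccnb1. Ccnb1 was therefore measured on the Cast allele alone, and the other 9 were measured on both alleles.

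The cells were CD23+ B cells (largely follicular B cells, which rest until they are stimulated) from the spleens of female F1 129S1/Cast mice of genotype Xist+/-, a genotype shared by all 6 samples. The 3 naive samples that received no treatment were compared with 3 samples stimulated in vitro for 24 h with 1 uM CpG, a DNA ligand of Toll-like receptor 9 that makes B cells enter the cycle. The F1 design gives each autosomal gene a 129S1 and a Cast copy in the same nucleus, so both copies met the same stimulus. With Xist absent from 1 X chromosome, the labels give the Cast X as the inactive one in every cell, but all 10 genes lie on autosomes: Ccnd2 on chromosome 6, Ccnd3 on 17, Ccne1 on 7, Ccne2 on 4, Ccna2 on 3, Ccnb1 on 13, Ccnb2 on 9, and Cdk1, Cdk2 and Cdk4 on 10. The ages of the mice are not given, and the labels do not say that the replicates came from separate animals, so the p-values measure the spread between these samples, which may be technical. No unstimulated cultured group of this cross is among the 6 samples, so CpG and time in culture cannot be told apart, and 12 F1 B6/Cast samples of the same series were not analysed here.

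Cyclins have no enzyme activity of their own; each binds and activates a cyclin-dependent kinase. D-type cyclins with Cdk4 act in G1 and answer to signals from outside the cell, cyclin E with Cdk2 acts at the start of DNA synthesis, cyclin A2 acts in S phase and G2, and B-type cyclins with Cdk1 drive entry into mitosis. Resting lymphocytes hold much of this machinery low, and the cyclins of the later phases are made and destroyed once per cycle.

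Gene counts summed to between 1987266 and 2928236 reads per sample on the 129S1 side and from 2465073 to 3321753 on the Cast side, and the Cast share of reads over matched autosomal genes lay between 51.9% and 53.6% in the 6 samples. All 8 B cell markers were present in every sample, and their summed level went from 8464 to 10502 CPM (read counts scaled to the library's size) in naive samples to 2939 to 3640 in stimulated samples, with all 8 lower by the test used below. Macrophage markers (16 genes) summed to between 4126 and 8799 CPM in naive and between 33.3 and 43.9 in stimulated samples, with Fcna at 0 reads in all 3 stimulated samples. T cell markers (9 genes) went from 56.9 to 68.7 CPM down to 6.38 to 6.64, with Cd3g at 0 in stimulated samples. Cd4 alone stood at 49.7, 25.1 and 36.5 CPM in naive samples, and Lck alone at 5.75, 5.58 and 6.25 CPM in stimulated ones. The sums thus rest largely on these genes and do not measure a share of T cells. Erythroid markers (5 matched of 9) went from 98.8 to 211 CPM down to 1.44 to 3.51, with Gata1 at 0, and neutrophil markers (6 matched of 8) from 5.53 to 34.3 down to 0.410 to 1.37. Plasma cell markers (6 genes) went from between 594 and 838 CPM up to between 1040.1 and 1097, with Mzb1, Xbp1 and Prdm1 higher, Jchain lower (log2 -1.81, edgeR adjusted p = 0.00175), Irf4 at a log2 of -0.03 (edgeR adjusted p = 0.833) and Sdc1 too low to test. All of these sums but that of the plasma cell markers fell with stimulation, while all members but Ccnd3 rose. Both kinds of change lie between the same groups of samples, and the part of the marker changes in the results was not tested. Fewer cells of a type and less RNA per cell cannot be told apart in such bulk samples.

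The promoters of 7 of the 10 genes were in the RefSeq table used (C57BL/6J reference, build GRCm38.p6, 250 bases before to 50 after the start). The windows of 4 genes are printed so that a kinase and its cyclin partners can be read side by side, Cdk1 with Ccnb1 and Ccnb2, together with the G1 kinase Cdk4. Capitals mark CCAAT (bound by the factor NF-Y), TTTGAA (the cell-cycle homology element of the mitotic gene class) and the E2F-type sites TTTCGCGC, TTTGGCGC and TTTCCCGC, searched on both strands, so that a match on the other strand appears as its reverse complement.
Cdk1, chr10:69352863-69353162, minus strand: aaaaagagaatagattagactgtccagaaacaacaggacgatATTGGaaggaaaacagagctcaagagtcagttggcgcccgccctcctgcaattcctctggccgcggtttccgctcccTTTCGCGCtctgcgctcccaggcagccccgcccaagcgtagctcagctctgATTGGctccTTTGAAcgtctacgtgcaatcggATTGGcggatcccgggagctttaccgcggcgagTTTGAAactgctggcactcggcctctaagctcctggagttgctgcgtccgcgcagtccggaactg
Ccnb1, chr13:100786437-100786736, minus strand: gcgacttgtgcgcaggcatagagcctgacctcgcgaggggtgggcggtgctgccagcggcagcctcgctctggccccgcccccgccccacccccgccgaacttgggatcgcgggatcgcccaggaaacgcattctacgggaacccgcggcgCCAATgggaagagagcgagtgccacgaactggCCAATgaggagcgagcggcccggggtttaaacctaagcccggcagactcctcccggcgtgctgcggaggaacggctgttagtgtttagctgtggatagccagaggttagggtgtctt
Ccnb2, chr9:70421505-70421804, minus strand: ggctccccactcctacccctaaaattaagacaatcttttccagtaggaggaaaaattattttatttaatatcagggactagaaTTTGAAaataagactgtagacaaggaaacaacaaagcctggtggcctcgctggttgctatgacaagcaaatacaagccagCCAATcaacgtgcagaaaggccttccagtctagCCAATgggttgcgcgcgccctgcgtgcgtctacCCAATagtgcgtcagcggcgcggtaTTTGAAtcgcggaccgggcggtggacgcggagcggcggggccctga
Cdk4, chr10:127063285-127063584, plus strand: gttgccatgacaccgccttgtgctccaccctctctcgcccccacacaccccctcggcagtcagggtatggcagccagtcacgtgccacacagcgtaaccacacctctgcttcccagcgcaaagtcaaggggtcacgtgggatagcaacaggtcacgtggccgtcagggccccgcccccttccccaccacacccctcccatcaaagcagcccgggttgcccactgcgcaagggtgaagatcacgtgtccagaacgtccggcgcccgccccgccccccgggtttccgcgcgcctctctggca
The Cdk1 window held 3 CCAAT, 2 TTTGAA and 1 TTTCGCGC. The Ccnb2 window held 3 CCAAT and 2 TTTGAA, the Ccnb1 window held 2 CCAAT, and the Cdk4 window held none of the 5 motifs. TTTGAA was found only in the windows of the mitotic members Cdk1 and Ccnb2, while the mitotic member Ccnb1 had neither TTTGAA nor an E2F-type site. The second window of the G1 member Ccnd3 had 1 CCAAT, and the Ccne1 window had no match. With so few windows, and none for Ccnd2, Ccne2 and Ccna2, whether matches sort by phase cannot be judged. Over the 8 windows of the 7 genes (Ccnd3 has 2 starts), CCAAT was present in 5, TTTGAA in 2 and any of the 3 E2F-type sites in 2. Among all 32851 promoters of the table, 37.4% held CCAAT, 17.9% TTTGAA and 1.84% any of the E2F-type sites. The match is a description of these letters and not of binding, and the F1 alleles may differ from this reference.

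At 24 h of CpG, 8 of the 9 members measured on the 129S1 allele were higher than in naive cells and 1, Ccnd3, was lower. On the Cast allele 9 of 10 were higher and Ccnd3 was again the only one lower. All of these passed edgeR's quasi-likelihood test at a Benjamini-Hochberg adjusted p of 0.05. Much of the transcriptome also changed: 55.2% of the 10581 genes tested passed on the 129S1 allele (28.2% higher and 27.0% lower) and 62.2% of the 10365 tested on the Cast allele (30.7% higher and 31.5% lower), so that passing the test alone says little about these genes. Naive and stimulated samples did not overlap in any member on either allele, as in 64.8% of all tested genes on the 129S1 allele and 68.5% on the Cast allele. By size, 5 of 9 members on the 129S1 allele and 6 of 10 on the Cast allele rose by more than 4 on the log2 scale, where 1.91% and 1.85% of all tested genes did. The cut of 4 was not among the planned settings and lies close below some members. With upper quartile scaling, Ccne1 and Ccnb2 on the Cast allele fell under it, at 3.89 and 3.93. The 5 on the 129S1 allele stayed above it, the lowest being Ccne1 at 4.04. The median log2 fold change of the members was 4.18 on the 129S1 allele and 4.04 on the Cast allele, beside -0.01 and -0.04 over all tested genes. Read levels are given as CPM within each strain's table. They are compared between conditions and not between genes, since neither gene lengths nor the number of strain variants per gene were used.

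**Figure D1:**
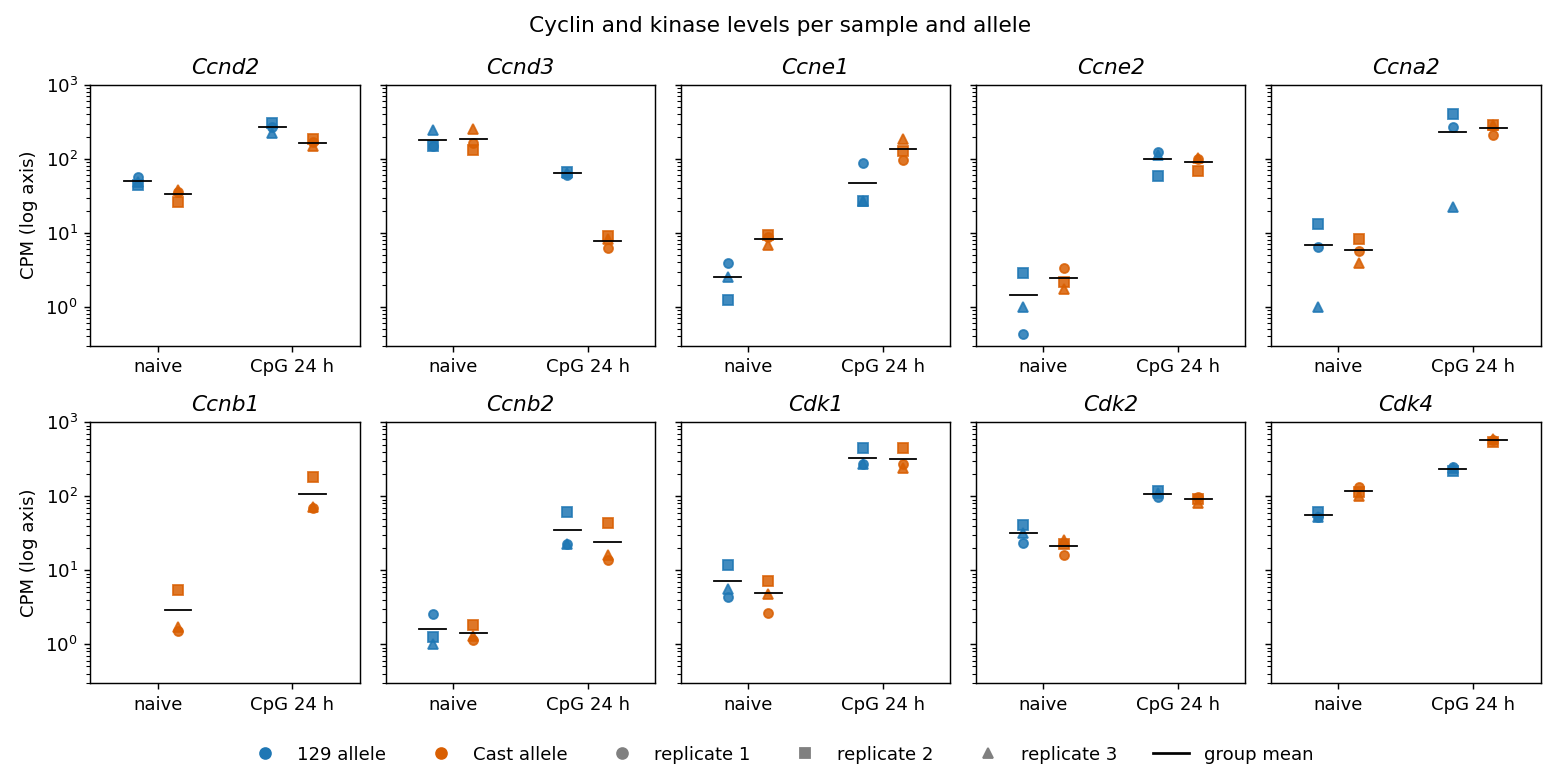
CPM of each of the 10 genes in each sample (points, log axis), with 3 naive and 3 stimulated samples shown separately for the 129S1 and the Cast allele. In every gene the groups stand apart on each allele measured, and Ccnd3 is the member whose stimulated samples lie below the naive ones.

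The G1 members moved in opposite ways. Ccnd2 encodes cyclin D2, a D-type cyclin that B cells induce on activation. It had 132, 107 and 97 naive reads on the 129S1 allele against 761, 862 and 651 after stimulation. On the Cast allele it had 95, 72 and 88 naive and 529, 594 and 503 stimulated reads. Every stimulated sample was well above every naive one on each allele. As CPM, Ccnd2 went from 49.96 ± 6.27 to 269 ± 39.4 (SD, n = 3 each) on the 129S1 allele (5.38-fold, log2 2.43, SE 0.16, edgeR adjusted p = 2.63e-05). The Cast allele went from 33.2 ± 6.33 to 166 ± 17.2 (5.02-fold, log2 2.33, SE 0.17, edgeR adjusted p = 4.55e-06).

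Cdk4, the kinase that D-type cyclins activate, rose by similar factors. Its naive counts were 120, 148 and 104 on the 129S1 allele and 355, 314 and 235 on the Cast allele, and its stimulated counts were 691, 625 and 683, and 1848, 1763 and 1978. The stimulated samples were close to each other and far above the naive ones. CPM went from 55.1 ± 5.55 to 236 ± 13.6 on the 129S1 allele (4.28-fold, log2 2.10, SE 0.13, edgeR adjusted p = 1.92e-05) and from 116 ± 16.6 to 570.5 ± 23.2 on the Cast allele (4.91-fold, log2 2.30, SE 0.14, edgeR adjusted p = 1.75e-06).

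Ccnd3 (cyclin D3, a D-type cyclin of germinal centre B cells) fell, and by unequal amounts on the 2 alleles. On the 129S1 allele it had 345, 361 and 489 naive and 168, 188 and 187 stimulated reads. On the Cast allele it had 438, 369 and 591 naive reads, but 20, 29 and 28 stimulated reads. The naive samples held similar numbers on both alleles, and the stimulated samples held few Cast reads in each of the 3 replicates. CPM on the 129S1 allele went from 181 ± 55.4 to 64.1 ± 3.27, 2.82-fold lower (log2 -1.50, SE 0.21, edgeR adjusted p = 7.93e-04). CPM on the Cast allele went from 184 ± 62.6 to 7.84 ± 1.37, 23.3-fold lower (log2 -4.54, SE 0.28, edgeR adjusted p = 2.30e-06). With both alleles summed, Ccnd3 was 5.25-fold lower (log2 -2.39, SE 0.21, edgeR adjusted p = 1.50e-05). Naive replicate 3 had the highest Ccnd3 level, 245 and 254 CPM against 133 to 165 in the other naive samples. It also had the highest erythroid marker sum, 211 CPM against 98.8 and 118, and neutrophil marker sum, 34.3 against 11.2 and 5.53. The B cell, macrophage, T cell and plasma cell sums were highest in other naive samples. Whether the erythroid or neutrophil transcripts had a part in the Ccnd3 level was not tested.

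At the G1/S boundary, Ccne1 (cyclin E1) and Ccne2 (cyclin E2), which activate Cdk2 at the start of DNA synthesis, had few reads in naive cells. Ccne2 had 1, 7 and 2 naive and 348, 167 and 326 stimulated reads on the 129S1 allele, and 9, 6 and 4 naive and 319, 224 and 347 stimulated reads on the Cast allele. CPM rose from 1.45 ± 1.30 to 99.4 ± 35.3 on the 129S1 allele (log2 6.02, SE 0.56, edgeR adjusted p = 1.68e-04) and from 2.42 ± 0.866 to 90.8 ± 18.8 on the Cast allele (log2 5.19, SE 0.29, edgeR adjusted p = 1.34e-06). The naive counts behind these folds are below 10 reads, so the exact factor is loosely known, and without naive replicate 2 the log2 value on the 129S1 allele was 7.06. Ccne1 had 9, 3 and 5 naive and 242, 75 and 78 stimulated reads on the 129S1 allele, with stimulated replicate 1 far above the other two. On the Cast allele the order was different, with 23, 26 and 16 naive reads and 310, 418 and 619 stimulated reads, replicate 1 being the lowest. The rise was 18.2-fold on the 129S1 allele (log2 4.18, SE 0.68, edgeR adjusted p = 0.00211) and 16.3-fold on the Cast allele (log2 4.03, SE 0.28, edgeR adjusted p = 3.43e-06). Without stimulated replicate 1 the 129S1 value of Ccne1 was 3.39 on the log2 scale. Summed over alleles the replicates came closer together, and the log2 fold change of 4.10 had an SE of 0.18 (edgeR adjusted p = 2.04e-07).

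Cdk2 itself was already read in naive cells and rose less than its cyclins. It had 55, 99 and 64 naive and 274, 332 and 316 stimulated reads on the 129S1 allele, and 43, 63 and 59 naive and 314, 300 and 275 stimulated reads on the Cast allele. The groups did not overlap, and the lowest naive sample was replicate 1 on both alleles. CPM rose 3.36-fold on the 129S1 allele, from 32.3 ± 8.74 to 109 ± 9.65 (log2 1.75, SE 0.21, edgeR adjusted p = 3.63e-04), and 4.25-fold on the Cast allele, from 21.4 ± 4.71 to 91.0 ± 8.89 (log2 2.09, SE 0.19, edgeR adjusted p = 1.42e-05).

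Of the S/G2 and mitotic members, Ccna2 (cyclin A2, which serves both Cdk2 and Cdk1) showed a gap between replicates that the treatment does not set. On the Cast allele it had 15, 23 and 9 naive and 676, 943 and 974 stimulated reads. On the 129S1 allele it had 15, 32 and 2 naive and 743, 1135 and 64 stimulated reads, so both samples numbered 3 were far below the others of their group. The Cast allele rose from 5.94 ± 2.23 to 264 ± 44.2 CPM (43.5-fold, log2 5.44, SE 0.25, edgeR adjusted p = 7.35e-07). On the 129S1 allele CPM went from 6.92 ± 6.16 to 231 ± 193 (32.2-fold, log2 5.01, SE 1.33, edgeR adjusted p = 0.0241). Without a term for the replicate number, this test lay near its threshold. Leaving out any 1 naive sample, or stimulated replicate 1 or 2, took the edgeR adjusted p to between 0.0507 and 0.0725. Leaving out both samples numbered 3 gave a log2 fold change of 5.08 with an edgeR adjusted p of 0.00117. With the replicate number as a block, the log2 fold change was 5.06 (edgeR adjusted p = 1.00e-11), and the CPM rose within each number, from 6.45 to 267, from 13.3 to 402 and from 1.00 to 22.3. The size of the rise without 1 sample lay between 4.33 and 5.88 on the log2 scale.

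Cdk1, the mitotic kinase, went from 10, 28 and 11 naive to 756, 1264 and 778 stimulated reads on the 129S1 allele, and from 7, 20 and 11 to 870, 1437 and 816 on the Cast allele. CPM rose from 7.15 ± 3.93 to 330.5 ± 102 on the 129S1 allele (45.5-fold, log2 5.51, SE 0.42, edgeR adjusted p = 8.91e-05) and from 4.86 ± 2.29 to 319.6 ± 108 on the Cast allele (64.8-fold, log2 6.02, SE 0.36, edgeR adjusted p = 1.75e-06). Replicate 2 was the highest sample within each group on each allele. Ccnb1 (cyclin B1), read on the Cast allele only, had 4, 15 and 4 naive and 220, 584 and 239 stimulated reads. Its CPM rose from 2.88 ± 2.196 to 107 ± 63.6 (35.7-fold, log2 5.16, SE 0.56, edgeR adjusted p = 4.69e-05). The Ccnb1 log2 fold change was 6.04 without naive replicate 2 and 4.57 without stimulated replicate 2. Ccnb2 (cyclin B2) had 6, 3 and 2 naive and 62, 171 and 64 stimulated reads on the 129S1 allele, and 3, 5 and 3 naive and 44, 139 and 55 stimulated reads on the Cast allele. The rise of Ccnb2 was 20.9-fold on the 129S1 allele (log2 4.39, SE 0.60, edgeR adjusted p = 6.98e-04) and 16.7-fold on the Cast allele (log2 4.06, SE 0.59, edgeR adjusted p = 2.81e-04). Without stimulated replicate 2 the Ccnb2 values were 3.73 and 3.40 on the log2 scale. Cdk1 and the B-type cyclins have processed pseudogenes in the mouse, and how reads that fit several places were counted is not given in the sources used here.

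**Figure D2:**
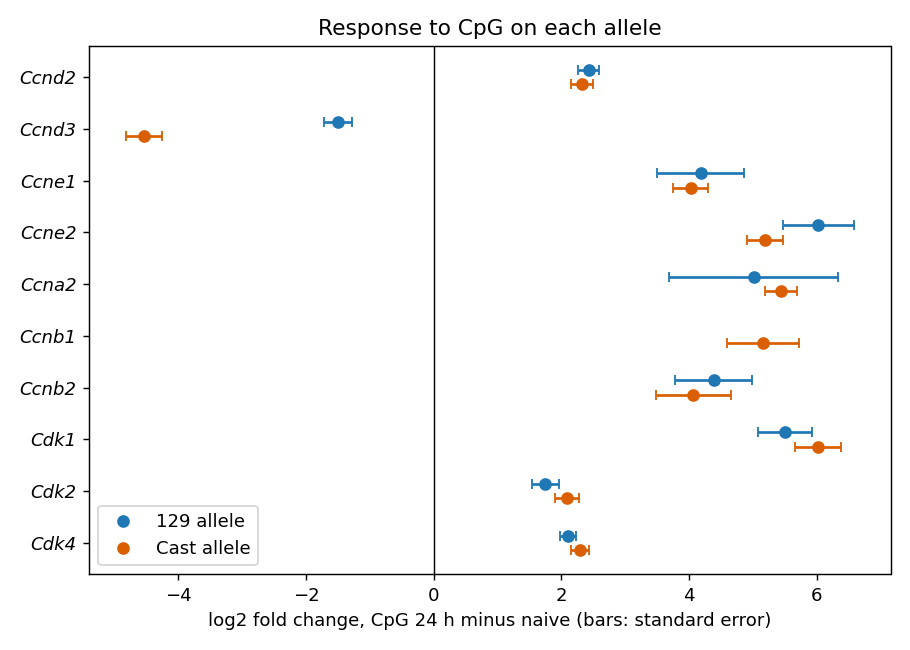
Log2 fold change (stimulated minus naive, edgeR) of each gene on the 129S1 and the Cast allele, with bars of 1 SE. Ccnd3 lies below 0 on both alleles at -1.50 and -4.54, Cdk2, Cdk4 and Ccnd2 lie between 1.75 and 2.43, and the cyclins E, A2 and B and Cdk1 lie between 4.03 and 6.02.

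Among stimulated samples the mitotic members peaked together in replicate 2. As a ratio to the mean of the 3 stimulated samples, replicates 1, 2 and 3 stood at 0.650, 1.69 and 0.663 for Ccnb1. Ccnb2 gave 0.636, 1.73 and 0.637 on the 129S1 allele and 0.570, 1.76 and 0.669 on the Cast allele. Cdk1 gave 0.823, 1.36 and 0.822 on the 129S1 allele and 0.858, 1.39 and 0.756 on the Cast allele. Ccne2 ran the other way, with replicate 2 the lowest at 0.596 on the 129S1 allele and 0.761 on the Cast allele. The summed level of 14 other genes of G2 and mitosis had the same shape, 7209.5, 10661 and 6699 CPM, while that of 12 S phase genes was nearly flat at 7099, 7035 and 7702 CPM. Naive replicate 2 was also highest of its group for the G2 and mitosis sum, at 464 CPM against 278 and 207. With 1 sample standing apart these are descriptions without a test.

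**Figure D3:**
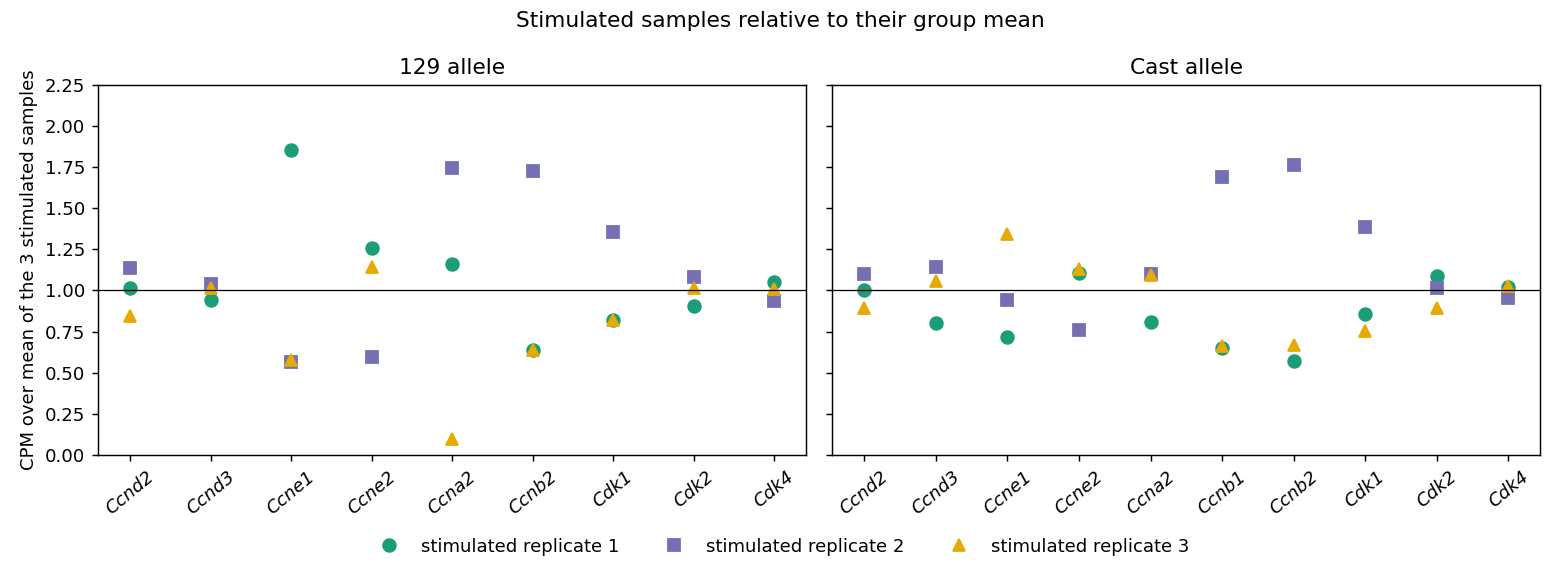
CPM of each gene in the 3 stimulated samples divided by their mean, drawn separately for each allele. Replicate 2 is high for Ccnb1, Ccnb2 and Cdk1 and low for Ccne2, and the 129S1 allele of Ccna2 in replicate 3 lies at 0.097.

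The balance between alleles was described by the share of reads assigned to each strain. The Cast share of a gene's reads in a sample is given with its 95% Wilson interval, a range for counting error alone, as these reads carry no molecular identifiers and copies of 1 molecule cannot be told from each other. For Ccnd3 the naive shares were 55.9% (52.4 to 59.4), 50.5% (46.9 to 54.2) and 54.7% (51.7 to 57.7). The stimulated shares of Ccnd3 were 10.6% (6.99 to 15.9), 13.4% (9.47 to 18.5) and 13.0% (9.17 to 18.2). The 2 groups were far apart, at 53.7% ± 2.83 and 12.3% ± 1.49 (SD, n = 3 each), and no sample's interval met one of the other group. In edgeR's model of the change in the Cast-to-129S1 ratio with stimulation, over 10073 matched autosomal genes, the Ccnd3 ratio fell by 3.04 on the log2 scale (SE 0.16, adjusted p = 6.59e-04), a factor of 8.22. Of the 9 members tested it was the 1 that passed, and 1.01% of all genes tested passed, 102 in number (790 with a replicate block), with 0.477% passing in its direction. Within the stimulated samples alone the Ccnd3 ratio was -2.82 on the log2 scale (SE 0.17, edgeR adjusted p = 8.35e-04), and within the naive samples it was 0.22 (SE 0.09, edgeR adjusted p = 0.173). The 8 nearest genes with enough reads around Ccnd3 had a median Cast share between 46.2% and 53.7% in all 6 samples. Its neighbour Taf8 had 43.5%, 45.6% and 48.2% in naive and 48.7%, 45.6% and 52.0% in stimulated samples, and Bysl had 48.1%, 52.4% and 45.5%, and 52.5%, 50.2% and 54.2%.

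Cdk4 was read more from the Cast allele in both conditions. Its Cast share was 74.7%, 68.0% and 69.3% in naive samples and 72.8%, 73.8% and 74.3% in stimulated samples, so the groups overlapped. The Cast-to-129S1 ratio of Cdk4 was 2.42-fold in naive cells (log2 1.27, SE 0.13, edgeR adjusted p = 0.00395) and 2.80-fold in stimulated cells (log2 1.48, SE 0.06, edgeR adjusted p = 3.07e-04), and its change with stimulation was 0.21 (SE 0.14, edgeR adjusted p = 0.683). An allelic difference of this kind was common, since 21.3% of 9363 genes passed in naive cells (13.1% toward Cast and 8.21% toward 129S1) and 21.5% of 9075 in stimulated cells (13.2% and 8.31%), and whether it reflects the alleles or how well reads map to each strain cannot be told apart here. The median Cast share of the 8 genes around Cdk4 was between 44.8% and 48.3%.

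Ccnd2 leaned to the 129S1 allele, with Cast shares of 41.9%, 40.2% and 47.6% in naive and 41.0%, 40.8% and 43.6% in stimulated samples. The lean passed in stimulated cells (log2 -0.48, SE 0.07, edgeR adjusted p = 0.0129) but not in naive cells (-0.40, SE 0.15, edgeR adjusted p = 0.143). The change between the conditions was -0.08 (SE 0.15, edgeR adjusted p = 0.964), so no difference between them was shown. In stimulated cells, leaving out replicate 2 took the Ccnd2 lean to -0.45 with an adjusted p of 0.0781.

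Cdk1 and Cdk2 had nearly even alleles after stimulation, at 52.6% ± 1.26 and 49.1% ± 3.73 Cast (SD, n = 3). Their shares in naive cells were 44.3% ± 4.96 and 43.6% ± 4.55. The change in ratio was 0.50 for Cdk1 (SE 0.16, edgeR adjusted p = 0.546) and 0.33 for Cdk2 (SE 0.20, edgeR adjusted p = 0.646), neither passing. Ccne2 and Ccnb2 had too few naive reads for a naive test, and in stimulated cells their shares were 52.2% ± 4.77 and 44.2% ± 2.42, with ratios of 0.13 (SE 0.13) and -0.33 (SE 0.16) that did not pass either (edgeR adjusted p = 0.550 and 0.205).

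**Figure D4:**
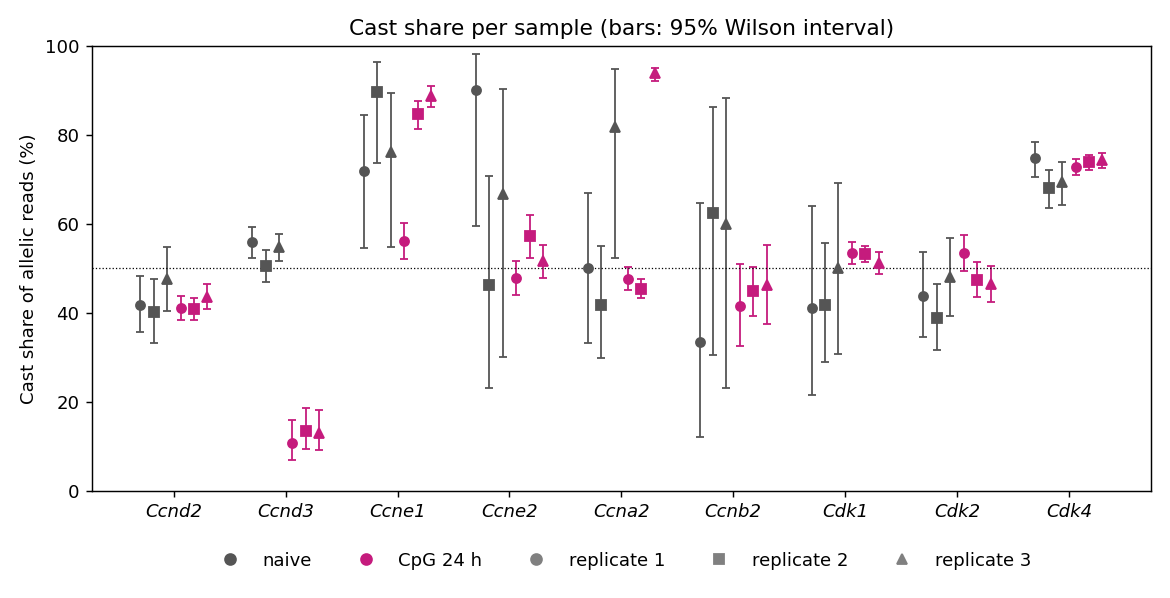
Cast share of reads (percent) of each gene measured on both alleles, 1 point per sample with its 95% Wilson interval. Ccnd3 is the only one of the 9 whose stimulated samples (10.6% to 13.4%) all lie far below the naive ones (50.5% to 55.9%). Cdk4 lies between 68.0% and 74.7% in all samples, and the stimulated samples of Ccna2 and Ccne1 split by replicate number.

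In Ccna2 and Ccne1 the allelic balance of the stimulated samples split by replicate number, and no change with treatment was shown. The Cast share of Ccna2 was even in naive replicate 1 (15 reads on each allele), 41.8% in replicate 2 and 81.8% in replicate 3, and it was 47.6%, 45.4% and 93.8% in the stimulated ones. The interval in stimulated replicate 3 ran from 92.2% to 95.1%, against 45.1% to 50.2% in replicate 1. Neighbouring genes on chromosome 3 had the same shape: Exosc9 had 55.0%, 54.5% and 94.3% naive and 54.8%, 54.5% and 95.3% stimulated. Nudt6 had its highest shares in the same samples, 84.4% naive and 93.0% stimulated, against 45.0% to 62.6% in the other 4. Acad9, another of the 8 neighbours, had no such gap, at 63.3% to 69.4% in all samples. The median of the 8 neighbours was 82.9% and 71.6% in the samples numbered 3 and between 48.7% and 57.3% in the other 4.

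Ccne1 had Cast shares of 71.9%, 89.7% and 76.2% in naive and 56.2%, 84.8% and 88.8% in stimulated samples. In stimulated cells, where reads were many, replicate 1 (52.0% to 60.2%) lay clear of replicates 2 (81.3% to 87.7%) and 3 (86.3% to 90.9%), while the intervals of the naive samples overlapped. Of its 8 neighbours on chromosome 7, Pop4, Uri1 and Zfp619 were also clearly lowest in the samples numbered 1. Pop4 had 64.8%, 93.7% and 90.6% naive and 63.3%, 92.5% and 93.0% stimulated. Uri1 had 45.6%, 71.3% and 74.3%, and 47.9%, 71.3% and 70.9%. Zfp507, also nearby, had no such gap, at 44.4% to 54.2%, nor had Pdcd5, Dpy19l3 and AI987944. AW146154 was highest in the samples numbered 1, at 46.5% naive and 45.3% stimulated. The median of the 8 neighbours was 48.5%, 52.7% and 52.5% in naive and 47.6%, 54.6% and 51.4% in stimulated samples. The ratio of Ccne1 passed in naive cells at a log2 of 1.94 (SE 0.48, edgeR adjusted p = 0.0494), a call lost without any 1 of the 3 naive samples (adjusted p from 0.0749 to 0.163). In stimulated cells the same ratio of 1.94 had an SE of 0.72 (edgeR adjusted p = 0.187), and without replicate 1 it was 2.73 and passed (edgeR adjusted p = 5.29e-04). The change of the ratio with stimulation did not pass in either gene: Ccna2 had 0.82 (SE 1.68, edgeR adjusted p = 0.982) and Ccne1 had 0.013 (SE 2.10). With SEs this wide, a change in either direction could have been missed. With the replicate number as a block, the change was 0.18 for Ccna2 (edgeR adjusted p = 0.869) and -0.34 for Ccne1 (edgeR adjusted p = 0.772).

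Of 8562 matched autosomal genes with at least 10 reads in each sample, 152 (1.78%) had both samples numbered 3 at least 20 percentage points above the other 4 samples in Cast share. For the samples numbered 1, 130 genes (1.52%) had both at least 20 points below the others. Ccne1 itself did not meet this measure, as its naive share was 71.9% in replicate 1 and 76.2% in replicate 3. In the remaining directions the shares of genes were 1.04% (number 1 above), 0.701% (number 2 above), 0.409% (number 2 below) and 0.666% (number 3 below). Such genes are thus a small minority, and this measure was chosen after the shares had been seen. What sets these samples apart at these places was not tested. The fold changes of Ccna2 and Ccne1 on a single allele carry the spread it brings, and the SE differed by allele: for Ccna2 it was 1.33 on the 129S1 allele, 0.25 on the Cast allele and 0.47 for the sum, whose log2 fold change was 5.28 (edgeR adjusted p = 6.30e-05).

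**Figure D5:**
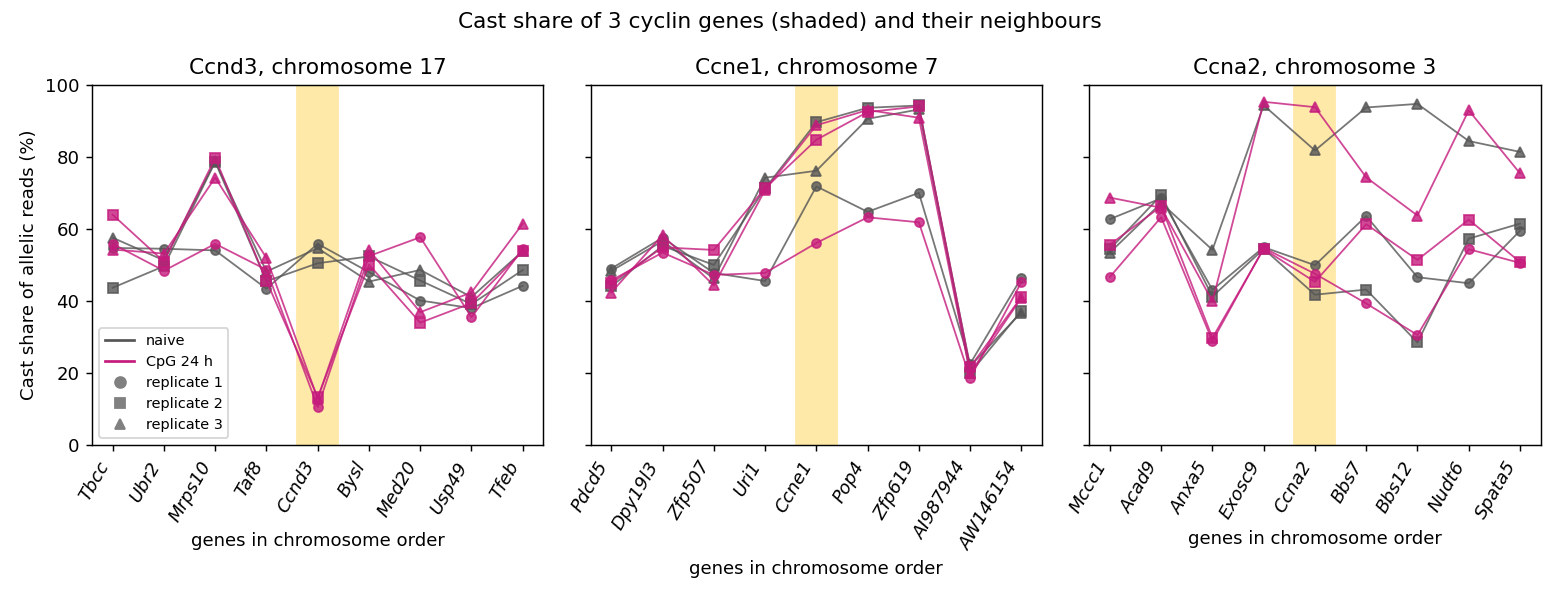
Cast share of reads (percent) in each sample for Ccna2, Ccne1 and Ccnd3 and their nearest genes with at least 10 reads per sample, in chromosome order. The samples numbered 3 stand above the others at Ccna2 and several of its neighbours, the samples numbered 1 stand lowest at Pop4 and Uri1 beside Ccne1, and at Ccnd3 the stimulated samples drop in that gene and not in Taf8 or Bysl.

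The rest of the pathway was read from both alleles summed, where 68.7% of 10343 tested genes passed (34.2% higher and 34.4% lower) and the median log2 fold change was -0.01. Among 17 other cyclins, 14 were tested, of which 5 rose and 6 fell, with a median of 0.03. The largest rise was in Ccnf (cyclin F, an F-box protein), from 8.35, 19.1 and 7.68 to 165, 265 and 160.3 CPM (log2 4.05, SE 0.38, edgeR adjusted p = 5.46e-05). On the 129S1 allele alone Ccnf stood at 146, 5.67 and 3.84 CPM in the stimulated samples and did not pass (edgeR adjusted p = 0.111). Ccnc (log2 1.21, edgeR adjusted p = 2.60e-05) and Ccnh (log2 1.20, edgeR adjusted p = 5.34e-05), which partner kinases of the transcription machinery, rose modestly. Ccng2, a cyclin linked to cell cycle exit, fell by 1.84 on the log2 scale (SE 0.24, edgeR adjusted p = 1.70e-04), and Ccnl1 and Ccnj fell by 1.07 and 0.83 (edgeR adjusted p = 0.00201 and 2.59e-04).

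Among 15 other cyclin-dependent kinases, 11 were tested, of which 1 rose and 3 fell. Cdk7, the CDK-activating kinase, rose by a log2 of 0.36 (SE 0.10, edgeR adjusted p = 0.00743). Cdk19 fell by 1.70 (SE 0.13, edgeR adjusted p = 3.71e-06), Cdk13 by 0.83 and Cdk17 by 0.35 on the log2 scale (edgeR adjusted p = 1.46e-04 and 0.00800). The other G1 members of the families, chosen after their values were seen, went separate ways. Cdk6, which like Cdk4 partners D-type cyclins and was named in the 129S1 tables only, rose there from 127, 128 and 88.3 to 749, 622 and 736 CPM (log2 2.61, SE 0.18, edgeR adjusted p = 2.84e-05). Ccnd1 (cyclin D1) had 20, 15 and 17 naive reads over both alleles and 0, 1 and 0 stimulated reads (log2 -5.52, SE 0.74, edgeR adjusted p = 1.16e-04). The macrophage markers were also nearly lost in the stimulated samples, and which cells the few Ccnd1 reads came from was not tested.

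Of the 7 CDK inhibitors 4 were tested, of which 2 rose and 1 fell. Cdkn1b (p27, which holds Cdk2 inactive in resting cells) went from 135, 105 and 146 to 33.7, 46.3 and 52.5 CPM (log2 -1.54, SE 0.18, edgeR adjusted p = 6.20e-05). Cdkn2c (p18, an inhibitor of Cdk4 and Cdk6) went from 0.239, 1.15 and 1.65 to 21.7, 25.9 and 18.7 CPM (few naive reads, log2 4.44, SE 0.42, edgeR adjusted p = 1.16e-05). Cdkn1a (p21) rose with a log2 of 1.82 (SE 0.57, edgeR adjusted p = 0.0180), and Cdkn2d had -0.37 (SE 0.33, edgeR adjusted p = 0.347). In the retinoblastoma family, the substrates of Cdk4 and Cdk2, Rbl1 (p107) rose by 1.67 (SE 0.15, edgeR adjusted p = 9.45e-06), Rbl2 (p130, the resting-cell member) fell by 1.82 on the log2 scale (SE 0.11, edgeR adjusted p = 9.15e-07), and Rb1 had -0.02 (SE 0.10, edgeR adjusted p = 0.875).

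Of 9 activators and regulators of the kinases, 8 rose and none fell, with a median of 2.81. Cdc25c, the phosphatase that activates Cdk1, went from 1.91, 3.69 and 1.92 to 48.8, 91.0 and 49.8 CPM (log2 4.62, edgeR adjusted p = 7.28e-06), with its highest stimulated value in replicate 2 like the B-type cyclins. Cks1b, a small CDK-binding protein, rose by 4.09 (edgeR adjusted p = 6.38e-07), and Wee1, which inhibits Cdk1, rose by 3.37 (edgeR adjusted p = 4.01e-06). Of 10 genes of cyclin degradation, 9 were tested and 6 rose, with none falling. They included Ube2c at 4.69 and Cdc20 at 4.34, which serve the anaphase-promoting complex that destroys cyclin B (edgeR adjusted p = 2.27e-04 and 7.83e-05), and its inhibitor Fbxo5 at 2.66 (edgeR adjusted p = 1.42e-06). Of 15 S phase genes, 12 were tested and 11 rose, with a median of 3.48, led by the replication licensing gene Cdc6 at 5.92 and the ribonucleotide reductase subunit Rrm2 at 5.91 (edgeR adjusted p = 3.45e-06 and 3.02e-07). Of 15 G2 and mitosis genes, 14 were tested and all 14 rose, with a median of 4.77. The spindle checkpoint kinases Bub1 at 5.95 and Bub1b at 5.71 led them (edgeR adjusted p = 9.10e-07 and 2.14e-06).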

How the data were processed

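RNA from naive and stimulated CD23+ B cells was extracted with TRIzol and made into stranded total RNA libraries, per the labels' protocols. The authors deposited raw read counts per gene, 1 table per sample for the 129S1 genome and 1 for Cast; the submitters' processing notes name STAR, featureCounts, Subread 2.0.0 and mm10 without their roles. How a read was assigned to a strain and how reads that fit several places were counted is not given in the sources used here. Reads outside any gene made up 48.1% to 67.1% of aligned reads in the 129S1 tables and 44.5% to 62.1% in the Cast tables and were left out. Genes without a symbol held 5.10% to 7.59% and 14.4% to 19.7% of gene counts and stayed in the library sizes.

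Counts were fitted with edgeR 4.0.16 in R 4.3.3 (filterByExpr, TMM, robust quasi-likelihood test) across all genes of the 129S1 table, of the Cast table and of their sum over genes matched by symbol, with Benjamini-Hochberg adjustment and a threshold of 0.05. CPM uses the TMM-scaled library size. The SE of a log2 fold change is its size over the square root of F. Allelic ratios were fitted over matched autosomal genes with a term per sample and 1 library size for both alleles. Each fit was tested on simulated data. Alternatives were other scalings, filters, a minimum fold change, DESeq2 1.42.0, a replicate block and leaving out samples.

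Replicate numbers come from the sample titles, and the labels do not state what they share. Deviations of same-numbered naive and stimulated samples correlated at 0.45 to 0.61 in the 129S1 tables, 0.17 to 0.25 in the Cast tables and 0.16 to 0.21 in the summed table. All were above 0.1, so the numbers may pair the samples. The main fits held no term for the replicate number, so their SEs and adjusted p-values do not use such a pairing. It entered only in the alternative with a replicate block. The members and gene lists were chosen with earlier results of these data known. All 10 members are named; of the other lists, every tested CDK inhibitor and retinoblastoma gene, and up to 3 genes with the largest rise and up to 3 with the largest fall that passed the test and averaged 30 reads or more per sample.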

Additional observations from a re-analysis of the deposited data

Results flagged for a closer look

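The Cast-to-129S1 ratio of Ccnd3 changed with stimulation by -3.04 on the log2 scale (SE 0.16, edgeR adjusted p = 6.59e-04), so that the difference between naive and stimulated samples was not the same for the 2 alleles. CpG and culture cannot be told apart in it, and the part of the macrophage and erythroid transcripts, which were high in the naive samples, was not tested. The direction was the same in all 3 stimulated samples, whose Cast shares of 10.6%, 13.4% and 13.0% lay below the naive shares of 50.5% to 55.9%. By adjusted p it stood 3rd of the 10073 genes tested, and by size 134th. No other member's ratio change passed.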

How the results depend on the processing

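No member's change between conditions reversed on either allele or in the sum under any alternative run. Allelic ratios of members turned their sign in 13 cases, none of which passed the test as reported or under the alternative. With 1 sample left out, the log2 change of the ratio ran from -0.17 to 0.043 for Ccnd2, -0.54 to 0.81 for Ccne1, -0.31 to 1.69 for Ccna2 and -0.99 to 0.025 for Ccnb2. The change for Ccne1 was also -0.34 with the replicate block and -0.66 without both samples numbered 3. The ratio itself ran from -0.26 to 0.72 for Ccna2 in naive cells, and in stimulated cells from -0.20 to 1.82 for Ccna2, -0.018 to 0.25 for Ccne2 and -0.17 to 0.025 for Cdk2. The cause of these turns was not tested. Every member kept its call in the Cast and the summed tables, while on the 129S1 allele Ccna2 also lost it without a filter on low counts (adjusted p = 0.0715) and with a minimum log2 fold change of 1 (0.0557). The Ccnd3 ratio change lay between -3.13 and -2.93 when 1 sample was left out, and was -3.03 with the replicate block and -3.06 (adjusted p = 0.0432) without both samples numbered 3, an alternative chosen after seeing the data. Counts of all genes moved more. A minimum log2 fold change of 1 left 2525 of 5842 genes on the 129S1 allele, 2827 of 6445 on the Cast allele and 3095 of 7105 for the sum. Leaving out 1 sample gave 5216 to 5477 genes (8 to 9 members) on the 129S1 allele, 5987 to 6319 (10 members) on the Cast allele and 6603 to 7067 (9 members) for the sum, and leaving out both samples numbered 3 gave 4658, 5383 and 5986. For the change in allelic ratio, the 102 genes became 56 with a fit that is not robust, 790 with the replicate block, 4 without both samples numbered 3 and 17 to 34 with 1 sample left out, Ccnd3 passing in each, and the cause of these shifts was not tested. The replicate block gave 6884, 6868 and 7271 genes on the 129S1 allele, the Cast allele and the sum and changed no member's call. The 2 members with an allelic difference in naive cells became 1, Cdk4, with a mean of at least 30 reads, with each allele's own library size, with a fit that is not robust, and without any 1 sample; the adjusted p of Ccne1 was 0.0569 with own library sizes and 0.0522 in the fit that is not robust. All genes numbered 1046 to 1588 of 1995 in naive and 1031 to 1903 of 1949 in stimulated cells with 1 sample left out, with 2 to 4 members of 3 in stimulated cells. Own library sizes took the share of allelic calls toward Cast from 61.5% to 50.7% in naive and from 61.3% to 50.8% in stimulated cells. Upper quartile scaling moved the median log2 fold change of all genes to -0.16, -0.17 and -0.18 on the 129S1 allele, the Cast allele and the sum. Depth limits Ccne2 and Ccnb2, whose naive reads did not exceed 9 on either allele.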
